A study of Triticum aestivum with 4 samples.

Results

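Chains of 3 or more neighbouring TaCCA1-7D binding peaks were examined in the wheat genome. The peaks of the deposited list were ordered by their summits, the position of highest signal in each peak, and neighbouring summits 2000 bp or less apart on a chromosome were joined. Members were thus chosen by the summit positions of the called peaks, and a chain has at least 3 of them. This gave 222 chains with 668 peaks, of 467343 peaks in the list. The 7213 peaks on unplaced scaffolds were left out, and the chains hold 0.145% of the remaining 460130 peaks (95% Wilson interval 0.135 to 0.157%, counting error only). All other values of the same calls, from spacing to fold enrichment, are therefore given as descriptions without a test.

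In DNA affinity purification sequencing (DAP-seq), sheared genomic DNA is offered to a purified, tagged transcription factor, and the bound fragments are sequenced. The bait was TaCCA1-7D fused to maltose-binding protein (MBP), and the DNA came from leaves of 2-week-old seedlings of the cultivar Fielder. The series has 2 libraries of DNA bound by TaCCA1-7D and, as controls, 2 of input DNA. All values below come from 1 peak list for the series, which carries no column per library, so a replicate error cannot be given, and the binding measured is that to purified DNA in a tube.

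CCA1 is a MYB-type transcription factor of the central oscillator of the plant circadian clock. In Arabidopsis it accumulates around dawn and binds the evening element in promoters of genes that are expressed later in the day, most of which it represses. Bread wheat carries the A, B and D subgenomes, each with its own set of chromosomes, and most of its DNA consists of repeats. Sites of one factor can lie side by side in regulatory DNA, and tandem repeats can place the same site at a regular distance.

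The study designed for this bait short duplexes from wheat promoters on chromosomes 1D, 1D, 2B and 3B. They are shown because they were designed for a binding test of the same protein, and to set the size of a single site against the spacing of the peaks. The capitals mark AATATC, the core of the evening element, which was searched on both strands. Each of the 4 duplexes held it 1 time in 35 or 36 bp. The genome sequence of the build of the list was not used here, so the bases below the chains are not shown.
DAP1-R: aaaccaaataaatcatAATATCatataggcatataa
DAP2-R: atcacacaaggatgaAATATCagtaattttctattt
DAP3-R: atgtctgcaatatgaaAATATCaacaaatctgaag
DAP4-R: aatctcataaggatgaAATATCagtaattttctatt

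Chains of TaCCA1-7D peaks were few and short. Of the 222 chains, 220 had 3 peaks and 2 had 4 peaks, and no chain was longer. Pairs of peaks within the same distance were far more frequent, at 18130, and 423202 peaks had no neighbour within 2000 bp. Runs of close neighbours seldom went on. Of 18574 close steps along a chromosome, 224 led to another close step, or 1.21% (95% Wilson interval 1.06 to 1.37%). Of 441514 steps longer than 2000 bp, 4.16% led to a close step (4.10 to 4.22%). Over all 460109 steps, 4.04% were close. These shares come from the summit distances that define the chains, so they are descriptions only. A further close peak must also pass the enrichment filter of the list, whose background may include the tags of its neighbours. Whether binding sites avoid each other was not tested and cannot be read from these shares.

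The chains were compact, and their peaks were separate. From the first to the last summit the chains measured 1619 bp at the median, the quartiles were 1191 and 2077 bp, and the range was 762 to 3368 bp. There were 22 chains under 1 kb and 3 chains over 3 kb. Peaks covered a median of 50.01% of a chain. Peak edges were a median of 339.5 bp apart in chains and 492.0 bp in pairs, and the smallest gap was 125 bp in both. No 2 listed peaks of a chain or pair were closer than that, so binding sites at a smaller distance are not counted separately here.

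The spacing of summits leaned to short distances. Over the 446 steps inside chains, the median spacing was 681.0 bp, with quartiles at 499.0 and 1070 bp, against a median of 927.5 bp and quartiles at 598.0 and 1459 bp over the 18130 pairs. The shortest spacing was 292 bp in chains and 268 bp in pairs. Spacings from 300 up to 700 bp made up 50.7% of those in chains (95% Wilson interval 46.0 to 55.3%) and 34.4% of those in pairs (33.7 to 35.1%). Spacings of 1500 bp or more made up 11.4% in chains (8.81 to 14.7%) and 23.3% in pairs (22.7 to 24.0%). The fullest 100-bp bin in chains ran from 400 to 500 bp with 74 spacings, followed by 68 from 500 to 600 bp. Pairs showed a second, low rise from 1500 to 1900 bp, with 875 spacings from 1500 to 1600 bp and 934 in the next bin. In chains, 19 spacings fell from 1500 to 1600 bp, against 9 in the bin before and 8 in the bin after, counts too small to show whether this rise is present there too.

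**Figure D1:**
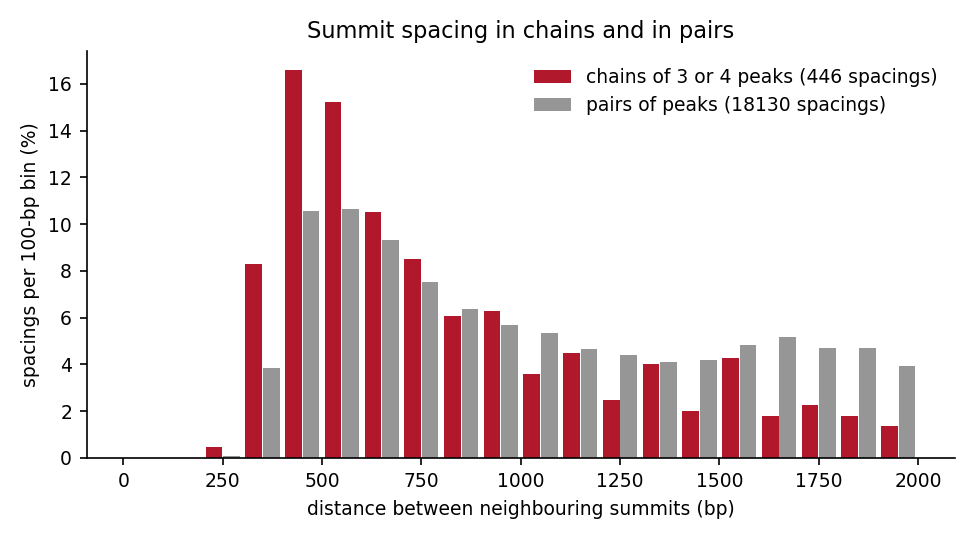
Distance between neighbouring summits (x axis, bp) in chains (446 spacings) and in pairs (18130 spacings), as the percentage of spacings in each 100-bp bin (y axis). The bars of both classes are highest from 400 to 600 bp, and those of the chains lie below those of the pairs from 1600 bp on.

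At the limit of the rule the values changed little. In 6 chains the largest spacing was between 1905 and 1991 bp, and the median fold enrichment of their peaks was 5.45. A limit of 2100 bp would have added 6 groups with a largest spacing between 2031 and 2078 bp and a median fold enrichment of 5.52.

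The spacing within a chain was seldom regular. In the chains of 3 peaks the smaller spacing had a median of 523.0 bp and the larger one of 1002 bp, and the larger was a median of 1.64 times the smaller. The ratio ranged from 1.01 to 5.11. The 2 spacings differed by at most 25% in 60 of 220 chains, or 27.3% (95% Wilson interval 21.8 to 33.5%), and by at most 10% in 31 chains, or 14.1% (10.1 to 19.3%). The larger was at most 2 times the smaller in 142 chains. Both spacings were under 1 kb in 110 chains and 1 kb or more in 13. Neither chain of 4 peaks had spacings within 25% or within 50% of each other. Long, evenly spaced arrays of peaks were therefore not seen in the list.

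**Figure D2:**
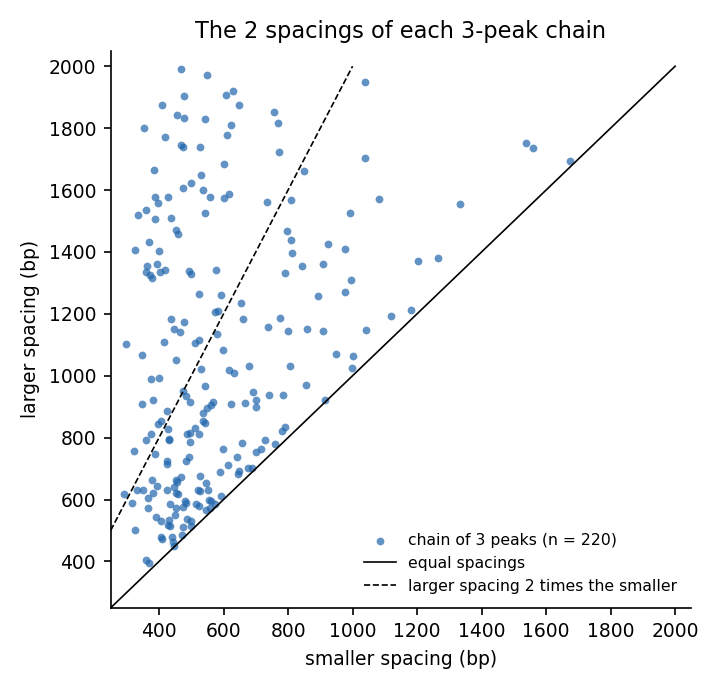
Smaller (x axis, bp) and larger (y axis, bp) of the 2 spacings in each of the 220 chains of 3 peaks, 1 point per chain. Points on the solid line have equal spacings, and of the 220 points 142 lie on or below the dashed line, where the larger spacing is 2 times the smaller.

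A given combination of spacings seldom recurred. Among the chains of 3 peaks, 15 matches were found in which both spacings of a chain were equal to those of another within 10 bp, in either order along the chromosome. The matches used 30 chains, none of them more than once, so no combination was found in more than 2 chains at this tolerance. The order was the same in 7 matches and opposite in 8. In 2 matches both chains lay on the same chromosome, and 0 of 15 joined homoeologous chromosomes, the corresponding chromosomes of different subgenomes. With a tolerance of 25 bp there were 96 matches among 121 chains, of which 44 had 2 or more matches. Of these 96 matches, 10 joined homoeologous chromosomes and 7 lay on the same chromosome. The shares of such chromosome pairs among all pairs of chains were not computed, so no preference can be read from these counts. The 15 and 96 matches were 0.0623% and 0.399% of all pairs of 3-peak chains. Matches within 25 bp were 6.40 times as many as within 10 bp, while the window of allowed spacings grew 5.90 times. From 5 to 10 bp the matches grew 5 times and the window 3.64 times. The number of matches thus grew somewhat faster than the window at both steps, starting from only 3 matches within 5 bp. No interval was computed for this growth, so it is not shown to exceed counting error.

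The closest match joined 2 chains of chromosome 7B. The chain from 25039125 to 25040834 had spacings of 793 and 431 bp, and the chain from 284146235 to 284147794 had spacings of 430 and 797 bp. Their highest fold enrichments were 6.01 and 6.52. A match was next closest between chromosome 1A from 318613440 to 318614825, with 459 and 619 bp, and chromosome 7B from 613811830 to 613813172, with 622 and 454 bp. All 3 peaks of the chain on 1A had the same fold enrichment of 5.52 and the same pileup of 12 tags. The third joined chromosome 4D from 18777607 to 18779248, with 626 and 526 bp, and chromosome 7D from 208263646 to 208265040, with 521 and 630 bp. The spacings matched within 5 bp in these 3 cases, but the heights of the peaks did not follow, with a highest fold enrichment of 7.34 on 4D and 14.2 on 7D. Whether the matched chains share a sequence was not tested.

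The peaks in chains were narrower and less enriched than the other peaks, on a higher local background. The fold enrichment is the ratio of the pileup, the number of sequenced tags that overlap the summit, to the local background, each with a pseudocount of 1. Its median was 5.75 in chains, with quartiles at 5.34 and 6.51, against 5.91 in pairs and 6.22 in single peaks. The median pileup was 13 tags in chains, against 12 tags in pairs and 12 in single peaks. The median background was 1.36 tags in chains, 1.20 in pairs and 0.968 in single peaks. Chain members thus had the lowest median fold enrichment and the highest median background of the 3 classes, with no fewer tags at the summit. If the background counts tags around the summit, as set out below, it includes those of neighbouring members. The order of the classes would then follow from the joining rule, which was not tested, so it is no finding about chains. The width of the peaks had a median of 283.5 bp in chains, 371.0 bp in pairs and 494.0 bp in single peaks. Since listed peaks do not overlap, the spacing of a chain bounds the width of its peaks.

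Many chain members lay close to the threshold of the list, a fold enrichment above 5. A fold enrichment under 5.5 was found for 243 of 668 members, or 36.4% (95% Wilson interval 32.8 to 40.1%), beside 26.3% of the peaks in pairs and 15.1% of all peaks on the chromosomes. A fold enrichment above 10 was found for 16 members, or 2.40% (1.48 to 3.86%). The shares of 1.60% of the peaks in pairs and 2.89% of all peaks lie inside that interval. In 79 members the pileup reached 20 tags or more, or 11.8% (9.59 to 14.5%), beside 7.38% of the peaks in pairs and 8.02% of all peaks. A background above 2 tags was found for 122 members, or 18.3% (15.5 to 21.4%), beside 10.2% of the peaks in pairs and 7.33% of all peaks. The lowest background in the list, 0.621 tags, was seen in 6 members, or 0.898% (0.412 to 1.95%), beside 8.13% of the peaks in pairs and 22.0% of all peaks. Chain members were hence more frequent at both a high pileup and a fold enrichment near the threshold, and rare at the lowest background. These shares come from the same calls as the rule and support nothing about the chains.

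The summed pileup of a chain was set against its local background. The background of the 359047 peaks above the lowest value moved in whole steps, each the shortest peak width (176 bp) divided by 10000 bp, within 0.02 of a step for 100.0% of them. It can thus be read as a number of tags in a window of 10 kb, although the sources do not state from which library. In the 220 chains whose peaks were all above the lowest background, the window held a median of 76 tags, and the pileups of its summits added up to a median of 40.5 tags. The summed pileup was a median of 52.5% of the window tags, with quartiles at 46.0 and 58.4% and a range of 37.1 to 100.0%. It was above 100% in 0 of the 220 chains and exactly 100.0% in 2. The median was 37.0% for pairs and 20% for single peaks. This order of the classes follows from adding 3 or 4 summits in a chain, 2 in a pair and 1 in a single peak, and is no finding about chains. The percentage was above 50% in 128 of the chains, or 58.2%. It is a share of the window only if the window was counted in the same library.

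**Figure D3:**
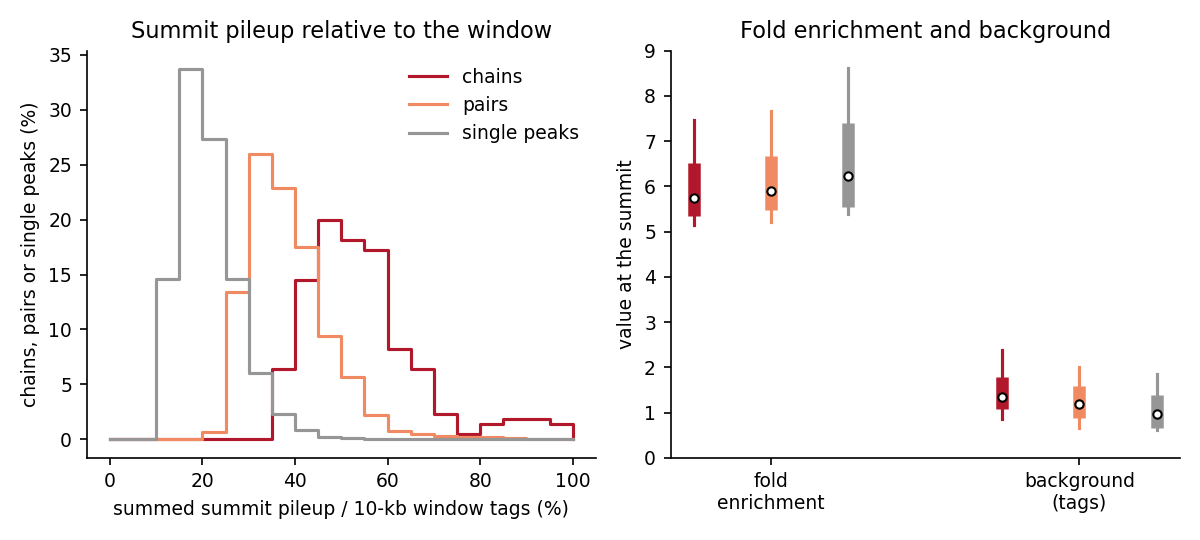
Left, summed summit pileup as a percentage of the tags in the 10-kb window (x axis) for 220 chains, 16542 pairs and 325072 single peaks above the lowest background, as a percentage of each class per 5-point bin (y axis). Right, fold enrichment (a ratio) and background (tags) with the median (white point), quartiles (thick bar) and 10th to 90th percentile (thin line) in chains, pairs and single peaks, in this order, with median fold enrichments of 5.75, 5.91 and 6.22.

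If the window does count the same tags, the background limits how many peaks a chain can show. With no tags outside the summits, and no background under 0.621 tags, 3 peaks of equal pileup pass a fold enrichment of 5 from 8 tags each on, and 8 such peaks in a window need 14 tags each. At most 11 equal peaks per window can pass at any depth, since the ceiling of the fold enrichment is then 5.17, and 12 cannot, with a ceiling of 4.73. For a fold enrichment above 10 the limit is 5 equal peaks. A window with 12 or more equal peaks would under this calculation list none of them. The observed chains of 3 and 4 peaks were below this limit, and the calculation was not used to correct any count.

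Peaks of a chain were of similar height, with no preferred place for the strongest. In a chain the highest pileup was a median of 1.20 times the lowest, with quartiles at 1.11 and 1.38, and the ratio was above 2 in 9 of 222 chains. All peaks had the same pileup in 18 chains. Pileups lay in a narrow range in every class, with quartiles at 11 and 16 tags in chains and 10 and 15 in both pairs and single peaks. The ratio was not computed for pairs, so similar height is not shown to be particular to chains. In the chains of 3 peaks, 1 peak alone had the highest pileup in 172 chains. It was the first along the chromosome in 59, the middle one in 62 and the last in 51. The lowest pileup was held by 1 peak alone in 140 chains, and by the first in 44, the middle in 48 and the last in 48. The median fold enrichment was 5.84 for the first, 5.65 for the middle and 5.74 for the last peak, and the median pileup was 13 tags in each place. The background was equal in all 3 peaks within 0.01 tags in 83 of 220 chains, and in the others it differed by up to 1.20 tags.

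Few chains held a strong peak, and in each of these the weakest peak stayed below 10. A member with a fold enrichment above 10 was found in 14 of 222 chains, or 6.31% (95% Wilson interval 3.79 to 10.3%), and 2 members in 2 of them. All 3 peaks passed this value in 0 of 222 chains, which allows a share of up to 1.35% by the limit of 3 counts (1.70% by Wilson). Over all peaks on the chromosomes 2.89% passed it, so few chains with such a peak are due at that share alone. The counts are therefore no finding about chains. Of the 16 strong members, 7 were the first peak of the chain, 6 the middle and 3 the last. In these 14 chains the weakest peak had a fold enrichment from 5.15 to 9.48.

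The chain with the highest single fold enrichment lay on chromosome 3D from 610904294 to 610905873 in the build of the list. Its peaks had fold enrichments of 17.4, 6.37 and 5.52, with 40, 14 and 12 tags at summits 512 and 831 bp apart. The first peak was thus more than 2 times as high as its neighbours, on the same background of 1.36 tags. The next chain by this measure, also on 3D, from 24148598 to 24150973, was singled out after its values were seen. It held the highest pileup of all members, with 31, 102 and 51 tags and fold enrichments of 5.37, 17.3 and 8.21, at nearly equal spacings of 1024 and 998 bp. Its background was high as well, from 4.96 to 5.33 tags.

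Both chains of 4 peaks lay on the B subgenome. On chromosome 7B from 740415334 to 740418223 the fold enrichments were 5.20, 6.89, 8.62 and 5.11, with pileups of 14, 19, 24 and 14 tags. Its summits were 806, 646 and 1219 bp apart, and the inner peaks were the higher ones. On chromosome 3B from 755501633 to 755503761 the fold enrichments were 5.65, 6.95, 5.65 and 5.21, with pileups of 12, 15, 12 and 11 tags. Its spacings were 1119, 462 and 321 bp, so that the last 3 peaks were crowded at 1 side. The lowest peaks of both chains were near the threshold of 5.

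Among the chains of 3 peaks, the summed fold enrichment was highest in 3 chains of the group 7 chromosomes. On chromosome 7D from 208263646 to 208265040 the fold enrichments were 9.48, 14.2 and 9.91, with 21, 32 and 22 tags. All of its peaks were far above the threshold, with the strongest in the middle. On 7D from 489406796 to 489408436 they were 12.3, 14.7 and 5.97, with 30, 36 and 14 tags. On chromosome 7A from 518042918 to 518044200 they were 13.3, 11 and 6.83, with 34, 28 and 17 tags at spacings of 433 and 516 bp. In both of the last chains 2 neighbouring peaks were strong and the third was weak.

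The longest chains had nearly even spacings close to the limit of the rule. On chromosome 4A from 679006802 to 679010585 the spacings were 1694 and 1674 bp, and the fold enrichments were 5.89, 5.49 and 8.94. On chromosome 7A from 547256260 to 547259792 the spacings were 1736 and 1558 bp, with fold enrichments of 5.17, 5.02 and 5.36. On chromosome 7B from 699725581 to 699729150 they were 1539 and 1751 bp, with 6.76, 5.04 and 7.14. A chain of 3 peaks cannot reach such a length unless both spacings are large, so even spacing follows from the length here.

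**Figure D4:**
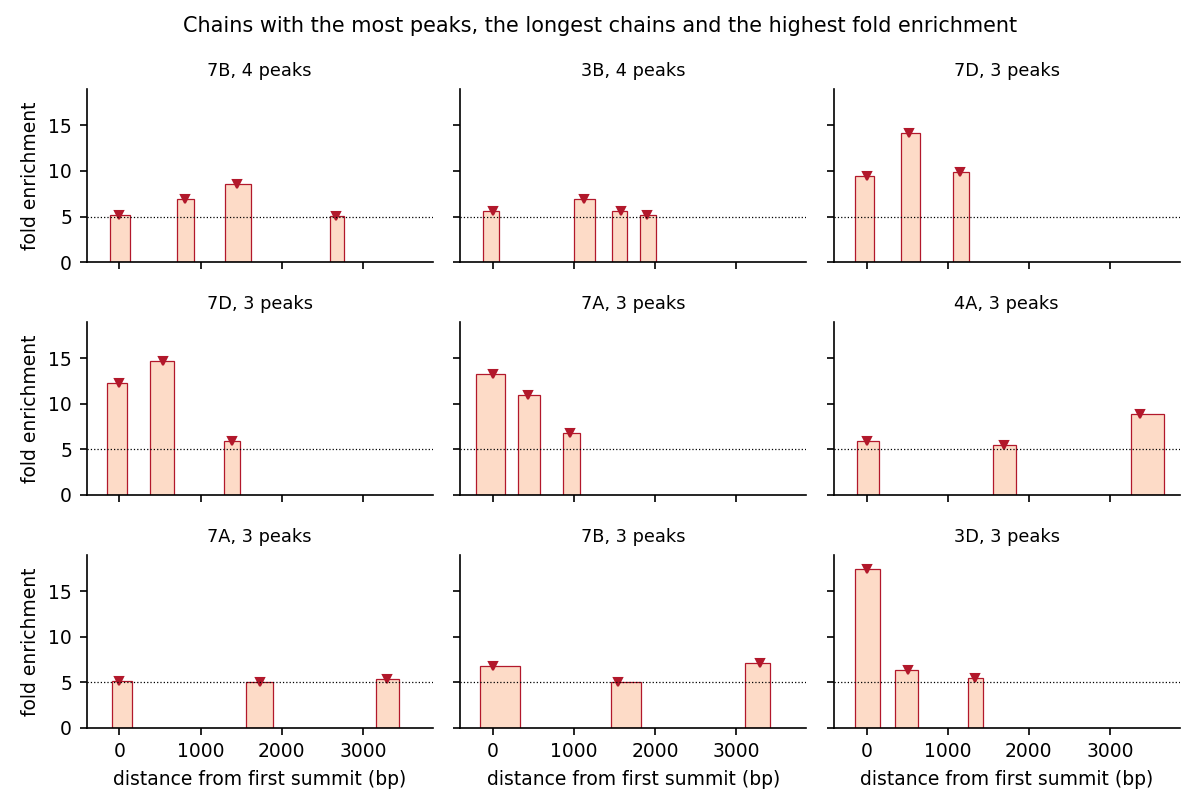
Peaks of 9 chains by distance from the first summit (x axis, bp) and fold enrichment (y axis, a ratio). Each box is a peak at its true width, triangles mark summits, and the dotted line is the filter of 5. The 2 chains of 4 peaks come first, then the 3 with the highest summed fold enrichment, the 3 longest, and the chain on 3D with a fold enrichment of 17.4.

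Outside the chains, further peaks were about as far away as from single peaks. The next peak outside a chain was a median of 22496 bp from its outer summit, over 442 sides, against 22679 bp for pairs and 22068 bp for single peaks. It lay within 5 kb at 9 sides of chains, or 2.04% (95% Wilson interval 1.07 to 3.82%), against 1.12% for pairs and 3.31% for single peaks. Within 10 kb the shares were 20.8%, 19.0% and 20.7%. The peak caller numbers its calls along the chromosome before the filter. In 7 of 446 steps inside chains, or 1.57% (0.762 to 3.20%), a number was missing between neighbouring members, so 1 or more weaker calls had been dropped there, against 2.81% of the steps in pairs. The share in pairs lies inside that interval. Over all 460109 steps between neighbouring peaks the share was 56.3%, but most of those steps were longer than the joining distance. The rule keeps the steps in chains short, so the low share is no finding about chains.

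Chains occurred on all 21 chromosomes and were sparse, at 15.8 per Gb over all of them. Wide distances between chains follow from so small a number, and whether chains cluster or avoid each other was not tested. The median distance between neighbouring chains on a chromosome was 42.2 Mb. It was under 1 Mb in 5 of 201 cases, which were 1 on chromosome 1D, 1 on 4A, 2 on 5A and 1 on 7B. The closest, 83381 bp apart, were the chain of 4 peaks on 7B and a chain of 3 peaks from 740501406 to 740502661, near the end of the chromosome. This neighbour was singled out after its values were seen, and it had fold enrichments of 6.32, 6.07 and 7.21 at spacings of 571 and 454 bp.

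The number of chains differed between chromosomes, with wide counting errors. The highest count was 18 on chromosome 4A, or 24.2 chains per Gb (95% Poisson interval 14.3 to 38.2, counting error only), and the lowest count was 3 on 6D, or 6.34 per Gb (1.31 to 18.5). The lowest density was 6.14 per Gb on 2D, with 4 chains. Lengths run to the last peak of each chromosome. Within homoeologous group 6 the counts were 14 on 6A, 17 on 6B and 3 on 6D, and in group 4 they were 18 on 4A, 6 on 4B and 10 on 4D. Group 2 had the fewest chains per Gb, at 9.40 (5.82 to 14.4), with 10 on 2A, 7 on 2B and 4 on 2D. The other groups ranged from 14.1 to 18.8 per Gb, and their intervals overlapped that of group 2. Overlap of separate intervals does not show that densities are equal, and no interval was computed for a ratio between groups.

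**Figure D5:**
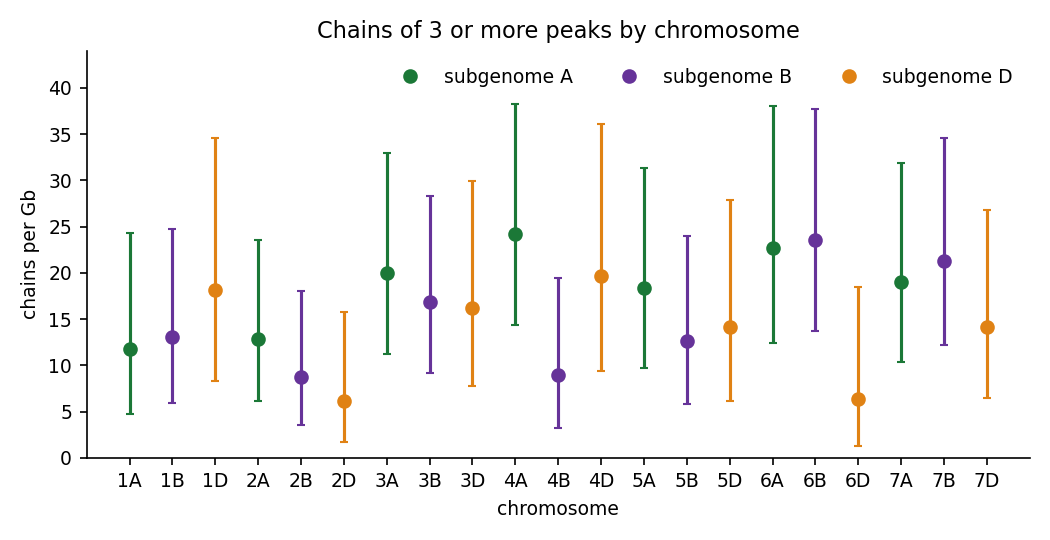
Chains of 3 or more peaks per Gb (y axis) on each of the 21 chromosomes (x axis), coloured by subgenome. Points are the observed densities and bars the 95% Poisson intervals of the counts, from 24.2 chains per Gb on 4A to 6.14 on 2D.

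The D subgenome held fewer chains per length than the A subgenome in this list, but the counting intervals overlapped. There were 53 chains on D, 78 on B and 91 on A, which gives 13.4 (95% Poisson interval 10.0 to 17.5), 15.1 (11.9 to 18.8) and 18.4 (14.8 to 22.6) chains per Gb. Over the 7 chromosomes the density was 13.5 ± 5.37 on D, 15.01 ± 5.81 on B and 18.4 ± 4.64 on A (SD). The SD here is that between chromosomes, not between libraries. A was above D in 6 of 7 homoeologous groups, above B in 4 of 7, and B was above D in 4 of 7. The ratio of D to A was 0.728 (95% exact binomial interval 0.508 to 1.03) and that of B to A was 0.816 (0.596 to 1.12). Both intervals include 1. Per 100 pairs, there were 1.13 chains on D, 1.12 on B and 1.41 on A.

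Along the chromosomes, chains were found in each of 10 equal parts of the length. Part 1 held 29 chains and part 10 held 26, and part 6 held 14, the fewest. Per 10000 peaks there were 6.30 chains in part 1, 5.63 in part 10 and 3.0 in part 6. The outer 10% at each end together held 55 of 222 chains, or 24.8% (95% Wilson interval 19.6 to 30.9%), beside 20.04% of all peaks, a share inside that interval. No gene is named for any chain, since the annotation of the build of the list was not used here, and whether a chain lies in a gene, a promoter or a repeat is not given.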

How the data were processed

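Reads were trimmed by the authors and mapped with Bowtie2 2.3.4 to version 1.0 of the Ensembl wheat genome. Reads with a mapping quality above 10 were kept (SAMtools 1.9) and duplicates were discarded. Peaks came from MACS2, and only those of more than 5-fold enrichment at an FDR under 1e-5 were listed. The sources used here state neither the control library nor whether replicates were pooled. The deposited list gives per peak a start, an end and a summit, a fold enrichment (a ratio), a −log10 p-value, a −log10 q-value and a score, which was not used.

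Pileup and background were recovered per peak. The pileup was taken as the whole number whose Poisson p-value, at the background implied by the fold enrichment, came closest to the listed one (misfit under 0.0001 for 100.0% of the peaks). Chaining and this step were tested on simulated data. Depth per library is not in the list, and the pileup, a median of 13 tags in chains, limits the precision. The members, lists and named chains were chosen with earlier results of these data known. Named were the 5 chains with the most peaks (ties by summed fold enrichment), the 3 longest, the one with the highest fold enrichment and the 3 closest matches of spacings. The rule also asked for regular chains of 5 or more peaks, of which there were 0, and the 15 matches were tied in number, so the smallest difference in bp was taken. No tests were run, because 1 list gives no replicates. Wilson, Poisson and binomial intervals at 95%, and the limit of 3 counts given for a count of 0, cover counting error only. Coordinates count from 1 in the build of the list. The gene table at hand is of another assembly and was not used. Python 3.11.15, numpy 2.4.6, pandas 2.3.3, scipy 1.17.1 and matplotlib 3.10.9 were used.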

Additional observations from a re-analysis of the deposited data

How the results depend on the processing

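The number of chains fell under a stricter joining distance, strength or size. With a joining distance of 1000 bp there were 112 chains, with 0.0730% of the peaks, a median spacing of 581.5 bp and a fold enrichment of members minus other peaks of -0.241. With 3000 bp the share was 0.212% and the median spacing 812.5 bp, and with gaps between peak edges of 2000 bp or less the share was 0.167%. When peaks were first limited to a fold enrichment above 10, there were 0 chains among 13306 peaks, or 0% (0.0225% by the limit of 3 counts, 0.0289% by Wilson), and hence no spacing, fold enrichment or ratio of subgenomes. With an FDR limit of 1e-10 there were 10 chains, 0.0331% of the peaks, a median spacing of 862.5 bp and a difference in fold enrichment of -1.69. The ratio of D to A was then 1.67 in place of 0.728, on 4 chains against 3. With at least 4 peaks there were 2 chains, 0.00174% of the peaks, and a difference of -0.529, and no ratio to the A subgenome, which held 0 of them. The fold enrichment of members minus other peaks was negative in all of these that gave a value, from -1.69 to -0.241 against -0.423. With at least 4 peaks the interval of this difference, on 8 peaks, ran from -1.07 to 2.44, so its sign is not settled there. If the background counts tags of neighbouring members, each of these settings keeps this. The shared direction is therefore no independent check, and whether it follows from the joining rule was not tested. The ratio of B to A stayed below 1 where it could be computed, at 0.842 with 1000 bp and 0.922 with 3000 bp. With 1000 bp the ratio of D to A was 0.901 (0.549 to 1.46), on 31 chains against 43. With 3000 bp it was 0.779 (0.580 to 1.04). The size of the difference between D and A thus depended on the joining distance. Of the alternatives chosen after seeing the data, a density per peak gave ratios of 0.844 for B to A and 0.754 for D to A. Chains with regular spacing numbered 0 among those of 4 or more peaks and 60 with chains of 3 counted. Matches of spacings numbered 15 within 10 bp, 96 within 25 bp, 7 in the same order alone and 3 within 5 bp. The causes were not tested. Leaving out a replicate was not possible, since the libraries have no separate columns. No paired analysis was possible because the list carries no replicate numbers. Few tags per summit limit single fold enrichments, and few chains limit the comparison of chromosomes.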

Other observations

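The unplaced scaffolds, left out above, held 11 chains of 3 peaks with 33 of 7213 peaks, or 0.458% (0.326 to 0.642%, Wilson), beside 0.145% of the peaks on the chromosomes. Their median fold enrichment was 5.74, the highest was 15.2, and the median spacing was 688.0 bp. The list gives all unplaced scaffolds as 1 sequence, and scaffold borders were not known to the chaining.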
